A study of Homo sapiens with 2 samples.

Results

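Genes for small structural RNAs transcribed by RNA polymerase III, other than tRNA genes, were examined for binding of mTOR, the kinase that couples nutrient supply to growth. The 10 genes were RN7SL1, RN7SL2, RN7SK, RMRP, RPPH1, RNY1, RNY3, RNY4, VTRNA1-1 and VTRNA2-1, chosen by their peaks and scores in this list, with earlier results known, out of 59098 annotated genes on chromosomes 1 to 22 and X. A gene had a peak when a deposited peak named it as nearest gene or overlapped its span by 1 base or more. By this rule 8 of the 10 genes had a peak, and their 8 peaks were drawn from 21440. The same rule gave a peak to 9.16% of all 10589 annotated genes of up to 500 bp, and overlap alone to 3.24% of them and to 16.8% of annotated genes of any length. Because the rule used the peaks themselves, the scores and positions of these 8 peaks are descriptions and were not tested.

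The cells were MDA-MB-231, an established line from a human breast cancer of the triple-negative kind, growing in serum-containing medium without a stated treatment or genetic change. Cross-linked chromatin enriched with 1 antibody against mTOR gave 1 library for chromatin immunoprecipitation and sequencing (ChIP-seq), and chromatin without enrichment gave 1 input library that served as reference for peak calling. Neither library had a replicate, so no value below has a replicate error and a difference between genes could not be set against one. The peak list holds no read counts, so the depth is unknown, and it measures no expression, so the identity of the cells was not checked against markers. A library from a control antibody was not analysed here.

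Most genes read by polymerase III carry their promoter elements inside the gene. The genes for 7SK, RNase MRP, RNase P, Y and U6 RNAs instead use elements upstream of the start: a distal octamer or ZNF143 site, a proximal sequence element (PSE) bound by the SNAPc complex, and a TATA box. The 7SL and vault RNA genes combine upstream and internal elements. mTORC1 is known to promote polymerase III transcription through phosphorylation of the repressor MAF1.

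Upstream sequences are printed to show which of these elements lie under the peaks. RefSeq promoter windows (GRCh38.p14, the assembly of hg38) of 5 neighbouring genes reached the upstream side of RN7SK, RMRP, RPPH1, RNY1 and VTRNA1-1. The bases before the neighbour's start are given 5′ to 3′ on the strand of the RNA gene, with positions counted from its first base, so that -1 is the base before it. The strand of VTRNA1-1 was taken from LOC105378198, which begins at the same base. Capitals mark every match to the octamer ATTTGCAT, the ZNF143 core (CCCA, any 2 bases, then ATGC), the PSE core TCACCNTNA or TATAA on either strand. The same windows were searched for ACTACA, part of an element shared by ZNF143 and RONIN (THAP11) sites, and for the internal B box element GTTCGANNC. The RN7SK sequence covers -335 to -86 (chr6:52995285-52995534, plus strand), that of RMRP -272 to -23 (chr9:35658042-35658291, minus strand) and that of RPPH1 -223 to -1 (chr14:20343412-20343634, minus strand). For RNY1 it covers -278 to -29 (chr7:148987277-148987526, minus strand), and for VTRNA1-1 -250 to -1 (chr5:140711026-140711275, plus strand).
RN7SK: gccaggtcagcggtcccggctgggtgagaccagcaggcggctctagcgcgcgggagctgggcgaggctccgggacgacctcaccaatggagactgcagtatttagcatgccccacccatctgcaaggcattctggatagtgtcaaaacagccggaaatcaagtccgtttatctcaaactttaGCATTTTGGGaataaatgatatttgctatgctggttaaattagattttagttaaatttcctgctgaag
RMRP: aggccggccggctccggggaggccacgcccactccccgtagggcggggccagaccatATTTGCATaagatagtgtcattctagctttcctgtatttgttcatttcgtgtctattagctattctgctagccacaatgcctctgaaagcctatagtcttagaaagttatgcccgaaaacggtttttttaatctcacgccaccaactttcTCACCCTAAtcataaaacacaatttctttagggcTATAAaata
RPPH1: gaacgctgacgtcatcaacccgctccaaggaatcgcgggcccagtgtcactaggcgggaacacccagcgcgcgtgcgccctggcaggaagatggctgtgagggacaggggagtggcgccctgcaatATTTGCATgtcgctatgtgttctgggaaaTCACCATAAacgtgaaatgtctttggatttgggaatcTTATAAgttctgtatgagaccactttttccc
RNY1: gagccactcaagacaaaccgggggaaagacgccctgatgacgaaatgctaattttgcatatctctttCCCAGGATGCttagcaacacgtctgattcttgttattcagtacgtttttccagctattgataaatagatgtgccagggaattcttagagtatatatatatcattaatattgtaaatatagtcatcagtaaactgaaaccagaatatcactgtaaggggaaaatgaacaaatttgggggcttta
VTRNA1-1: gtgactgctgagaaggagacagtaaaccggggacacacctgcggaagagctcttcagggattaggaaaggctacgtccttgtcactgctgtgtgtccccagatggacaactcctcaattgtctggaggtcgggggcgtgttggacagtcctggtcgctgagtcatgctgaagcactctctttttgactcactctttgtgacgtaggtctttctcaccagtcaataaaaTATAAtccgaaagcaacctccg

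RMRP and RPPH1 had the same order of elements. In RMRP the octamer lay at -215 to -208, the PSE core at -65 to -57 and TATAA at -31 to -27. In RPPH1 the octamer was closer, at -97 to -90, with the PSE core at -68 to -60 and TATAA at -30 to -26, where a match on the opposite strand overlaps it by all but 1 base. In RN7SK the ZNF143 core matched once, at -153 to -144 on the opposite strand, and the window ends before the place where a PSE or TATA box would lie. In RNY1 it matched at -211 to -202, and no octamer, PSE core or TATAA matched from -278 to -29. The RNY1 window ends within the positions that TATAA takes in RMRP and RPPH1, so a TATA box there could have been missed. VTRNA1-1 had TATAA at -22 to -18 and none of the other motifs in its window. Over the same 250 bases of all 35116 tabled promoters the octamer occurred in 1.63%, the ZNF143 core in 1.5%, the PSE core in 2.23% and TATAA in 18.9%. ACTACA, present in 7.28% of promoters, and the B box, in 0.672%, matched in none of the 5 windows. The peaks covered all of the RN7SK, RMRP and RPPH1 windows and 52.0% of the RNY1 window, so the octamers and PSE cores of RMRP and RPPH1 and the ZNF143 core of RN7SK lay under a peak. The ZNF143 core of RNY1 did not, since that peak reached 158 bp upstream of the gene. Nor did the octamer of RNU6-9, a U6 RNA gene outside the 10 whose window is not printed: it lay at -224 to -217 and the peak reached 205 bp upstream. The VTRNA1-1 window lay under none.

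The highest score was at a 7SL gene. 7SL RNA is the scaffold of the signal recognition particle, which brings ribosomes making secreted proteins to the endoplasmic reticulum. The peak score, a whole number from the authors whose scale the sources do not give, was 665 for RN7SL2 (chr14:49861930-49863031), rank 233 of 21440. RN7SL1 (chr14:49586374-49587163) had 248, rank 1507. RN7SL3, another functional copy that is not among the 10 genes, had 135 (chr14:49853415-49854146). The score of RN7SL2 was thus 2.68 times that of RN7SL1 and 4.93 times that of RN7SL3, although RN7SL2 and RN7SL3 lie 8637 bp apart. All 3 genes are 299 bp long, and their sequences are nearly identical, so reads inside them could belong to any copy and these scores are uncertain. The peaks also reached into the flanks, by 206, 182 and 232 bp upstream and 285, 621 and 201 bp downstream of RN7SL1, RN7SL2 and RN7SL3.

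7SK RNA, which holds the elongation factor P-TEFb inactive together with HEXIM proteins and LARP7, followed in score. RN7SK (chromosome 6, 52995620 to 52995951) had 387, rank 681, and its peak (chr6:52995102-52996408) was 1307 bp wide, the widest of the 8. RMRP, the RNA of the enzyme RNase MRP that takes part in processing ribosomal RNA (chromosome 9, 35657750 to 35658019), had 251, rank 1480. RPPH1, the RNA of RNase P, which removes the leader from tRNA precursors (chromosome 14, 20343071 to 20343411), had 150, rank 3153. RMRP and RPPH1 RNAs share most of their proteins, and the score of the RMRP peak was 1.67 times that of the RPPH1 peak. Their peaks were 1038 and 923 bp wide. These 3 genes therefore lay above the upper quartile of all peaks, 103, as did both 7SL genes and RNY4.

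Y RNAs bind the Ro60 protein and are linked to DNA replication and RNA quality control. Their 4 genes form a cluster on chromosome 7, with 45565 bp between RNY5 and RNY1 at its ends, and 3 had a peak. RNY4 had 116 (chr7:148963156-148963783), RNY3 had 73 (chr7:148983570-148983936) and RNY1 had 66 (chr7:148986999-148987406). RNY5, which is not among the 10 genes, had none, and the nearest peak was the one at RNY4, 21585 bp away. No other peak lay between RNY5 and RNY1, so each of the 3 peaks in this stretch sat on a Y RNA gene. The RNY3 and RNY1 peaks were the lowest of the 8, close to the median of all peaks, 61, and they ranked 8264 and 9422. Their widths of 367 and 408 bp were also near the overall median of 400 bp, while the RNY4 peak was 628 bp wide.

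Vault RNAs of the VTRNA1 cluster are components of vault particles, and the genes annotated as vault RNA differed in their peaks. VTRNA1-1 (chromosome 5, 140711276 to 140711373) and VTRNA2-1 (chromosome 5, 136080491 to 136080598) had no peak. The other genes of the VTRNA1 cluster did: VTRNA1-2 had 126 (chr5:140718793-140719431) and VTRNA1-3 had 87 (chr5:140726023-140726558). The peak nearest to VTRNA1-1 was that of VTRNA1-2, 7420 bp away, and the peak nearest to VTRNA2-1 was 52212 bp away, assigned to SMAD5 with a score of 65. These 2 genes thus lay 7420 bp or more from any peak, whereas all 8 peaks covered their gene from end to end. No gene of the 10 was therefore close to the limit of the overlap rule. With the depth unknown, a missing peak does not show that mTOR was absent from these 2 genes.

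**Figure D1:**
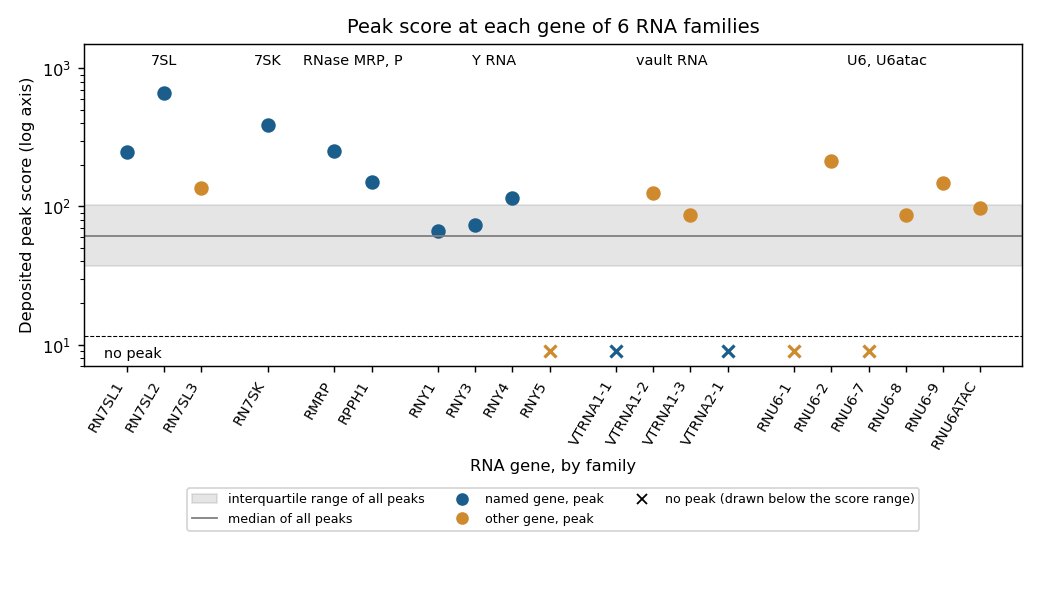
Deposited peak score (vertical, log axis) of each gene of 6 RNA families, with blue points for the 10 named genes, orange points for relatives and crosses for genes without a peak, over the median (61) and interquartile range of all peaks in grey. RN7SL2 is highest at 665, RNY1 lowest at 66, and 5 genes of these families, VTRNA1-1 and VTRNA2-1 among them, have no peak.

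The peaks lay over the RNA genes rather than only upstream of them. The centre was downstream of the RNA start in 7 of 8, by 44 bp for RMRP and 369 bp for RN7SL2 at the extremes, and 2 bp upstream of it for RNY3. It fell inside the gene in 5, namely RN7SL1, RN7SK, RMRP, RPPH1 and RNY1. For RN7SL2 and RNY4 it lay beyond the far end, with reaches of 621 and 373 bp past the gene against 182 and 159 bp upstream. RN7SK and RMRP showed the reverse, with 518 and 474 bp upstream against 457 and 294 bp downstream. Of the 8 peaks 4 reached farther downstream than upstream. The strand of each gene was read from the deposited distance, which matched 1 end of the span within 1 base, and 4 genes lay on each strand.

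**Figure D2:**
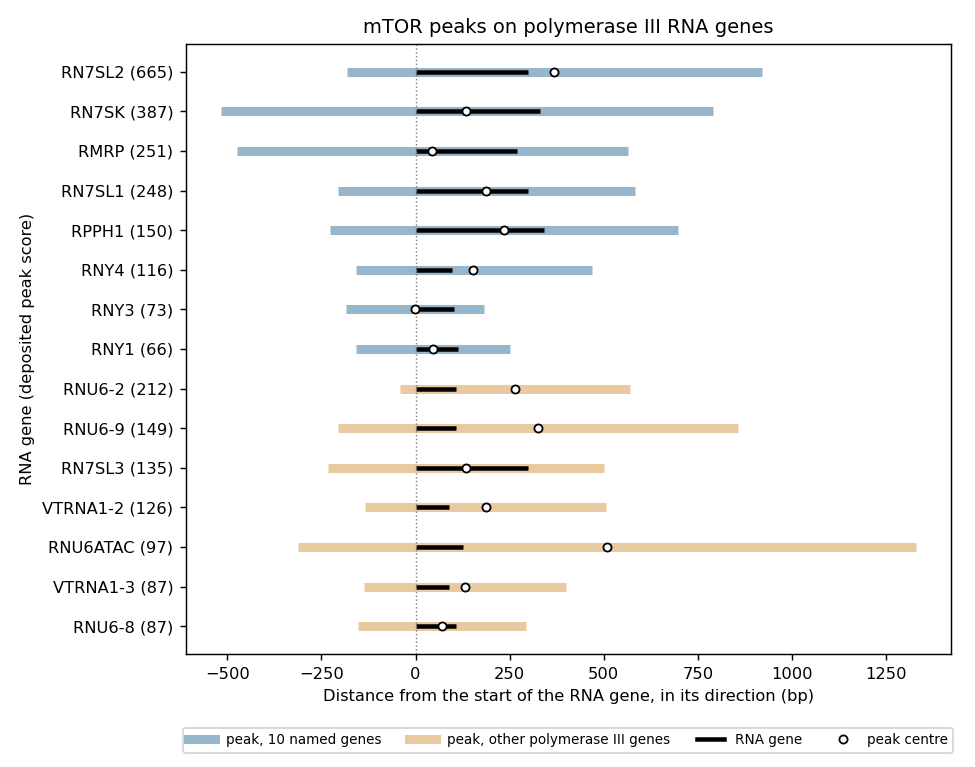
Each line is a peak drawn along the distance from the start of the RNA gene in its own direction (horizontal, bp), blue for the named genes and orange for other polymerase III RNA genes, with the gene in black and the peak centre as a circle. Every peak shown spans the whole gene, and the circles run from -2 bp at RNY3 to 508 bp at RNU6ATAC.

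Neighbouring protein-coding genes set a limit on what these peaks can be assigned to. CCDC107, PARP2 and GSTA4 start 273, 224 and 336 bp from the starts of RMRP, RPPH1 and RN7SK, each pointing away from the RNA gene, and all 3 starts lay under the peak. PARP2 encodes a DNA damage sensor and GSTA4 a glutathione transferase. The PARP2 start at 20343635 was only just inside its peak, which ends at 20343638. The peak centres were 318, 458 and 471 bp from the CCDC107, PARP2 and GSTA4 starts, against 44, 234 and 135 bp from the RNA starts. That the RNA starts were nearer follows from the naming of the RNA gene as nearest gene of each peak. Binding at the RNA gene and at the paired protein-coding promoter cannot be told apart for these 3 from a peak list. For the other 5 the nearest protein-coding gene start in the RefSeq table was far off, 9692 bp from the RN7SL2 peak centre (NEMF), 11942 bp for RN7SL1 (RPS29) and 38106 to 61840 bp for the Y RNA genes (PDIA4). That table gives 1 start a gene, and RN7SL1 lies inside the span of RPS29, a ribosomal protein gene. The deposited class of the RN7SL1 peak, a centre near a start, names an RPS29 transcript. Binding at RN7SL1 and at a start of RPS29 therefore cannot be told apart either. The class of the RNY1 peak names GHET1, a non-coding gene whose start adjoins the RNY1 upstream window, -278 to -29. Binding at RNY1 and at the GHET1 start likewise cannot be told apart.

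**Figure D3:**
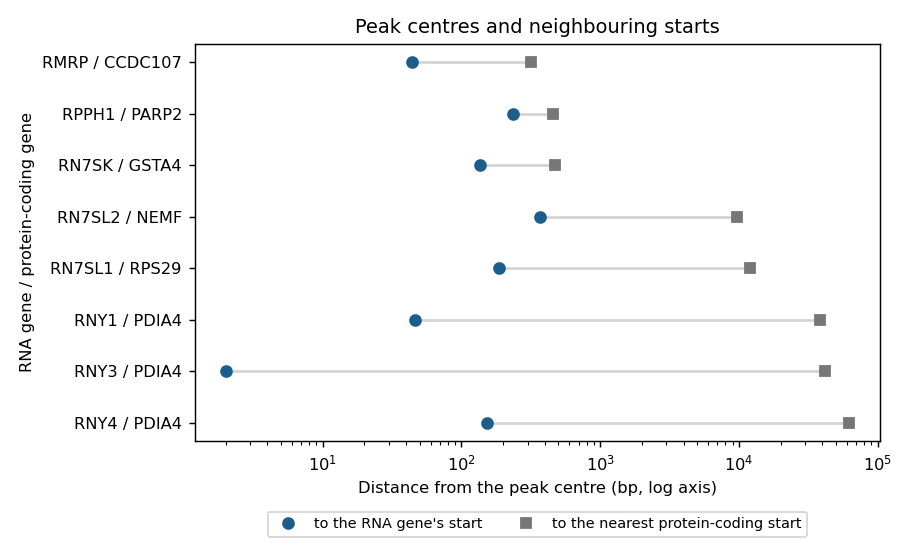
Distance from the peak centre (horizontal, bp, log axis) to the start of the RNA gene (circles) and to the nearest protein-coding start (squares) for the 8 genes with a peak. Protein-coding starts are those of the RefSeq table, 1 a gene, so an RPS29 start nearer to RN7SL1 is not drawn. All 8 circles lie left of their squares, which follows from the RNA gene being the deposited nearest gene of each peak. The smallest separation is at RPPH1, 234 against 458 bp.

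The deposited classes followed those neighbours. The promoter-TSS class, a peak centre near a start, held 6 of the 8 peaks and the TTS class, a centre near a transcript end, held RN7SL2 and RNY4. The transcript named by the class belonged to another gene in 5 of 8: RPS29 for RN7SL1, GSTA4 for RN7SK, CCDC107 for RMRP, PARP2 for RPPH1 and the long non-coding RNA gene GHET1 for RNY1. The nearest gene column named the RNA gene in all 8. No tRNA gene lay under any of the 8 peaks. Repeat labels say nothing of them, because none of the 3042 peaks of these classes carries one.

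Scores of the 8 peaks ran from 66 to 665 with a median of 199, and the median over the 2797 peaks of the promoter-TSS class was 59. Widths ran from 367 to 1307 bp with a median of 856.5 bp. Wider peaks had higher scores across the list (Spearman's rho 0.543 over 21440 peaks of 1 library, a description), so the widths were set beside peaks with scores within 10% of each. The RN7SK peak was 1307 bp wide where 236 such peaks had a median of 875.5 bp, and the RPPH1 peak 923 bp where 946 had a median of 547.5 bp. RN7SL2, at 1102 bp, was narrower than the median of its 107 such peaks, 1149 bp, and RNY3, at 367 bp, narrower than 391 bp. The other 4 were wider than theirs.

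**Figure D4:**
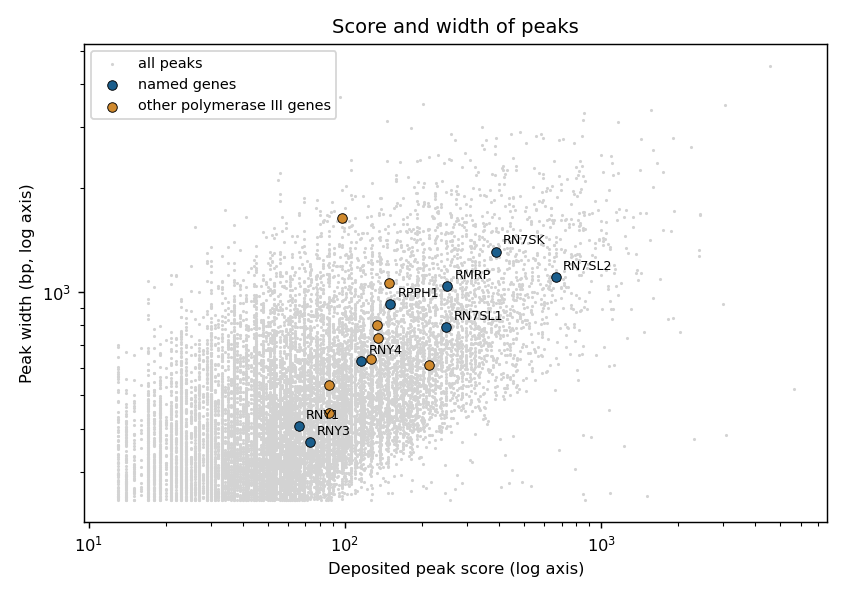
Deposited score (horizontal) and width in bp (vertical) of all peaks in grey, of the 8 named genes in blue and of other polymerase III RNA genes in orange, on log axes. The named genes spread from RNY1 and RNY3 in the middle of the cloud to RN7SK and RN7SL2 near its upper right.

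Other polymerase III RNA genes outside the 10 were taken as a list of 57, of which 8 overlapped a peak (overlap in 3.24% of short genes). With peaks that only name the gene as nearest also counted, as in the rule for the 10 genes, 13 of 57 had one (9.16% of short genes). That count uses the deposited names. The peak that overlaps RNU6-2 is named RNU6-7, so it counts for both genes. Beside RN7SL3, VTRNA1-2 and VTRNA1-3 the 8 overlapping genes were RNU6-2, RNU6-8, RNU6-9, RNU6ATAC and TRU-TCA1-1. U6 RNA forms the catalytic core of the spliceosome. By position, RNU6-2 had 212 (chr19:1021482-1022092), RNU6-9 had 149 (chr19:893279-894341) and RNU6-8 had 87 (chr14:32202976-32203421), while RNU6-1 and RNU6-7 had no overlapping peak. The deposited names for these 3 peaks were RNU6-7, RNU6-2 and RNU6-2, so U6 genes are given here by their RefSeq spans, and reads from near-identical U6 copies could be shared. The classes of the RNU6-2, RNU6-9 and RN7SL3 peaks name the protein-coding genes TMEM259, MED16 and NEMF. These start 399, 297 and 1126 bp from the RNA starts, outside the peaks. Binding linked to these promoters cannot be told apart from binding at the RNA genes. RNU6ATAC, the U6 counterpart of the minor spliceosome, had 97 in a peak 1642 bp wide. TRU-TCA1-1, the selenocysteine tRNA gene, whose promoter is of the upstream kind, had 133 and was deposited as intergenic with FOSB as nearest gene. RNU6-2, RNU6-9 and RN7SL3 were the RNA genes of the lists closest in score to RN7SL2, at -1.65, -2.16 and -2.30 on the log2 scale in this 1 library.

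The remaining 49 of the 57 had no overlapping peak. The 17 tandem 5S ribosomal RNA genes had 0, as had the 28 SNAR genes, which for a count of 0 allows shares of up to 17.6% and 10.7%. Both groups are near-identical repeats, and how reads that align to several places were treated is not given in the sources used here. SNAR-E had a peak of score 166 at a distance of 207 bp. BCYRN1, the neuronal BC200 RNA gene derived from an Alu element, and RNY5, RNU6-1 and RNU6-7 make up the rest.

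Small structural RNA genes read by polymerase II were set beside these polymerase III genes. Those for U1, U2, U4, U5, U7, U11, U12, U4atac, U3, U8 and U13 RNAs carry similar upstream elements but recruit polymerase II. The list of 49 also holds the telomerase RNA gene and variant U1 genes, some annotated as pseudogenes, whose upstream elements were not examined. None of 49 overlapped a peak (0%, which allows up to 6.12% for counting error only, against 3.24% of short genes). As the allowed share is above that of short genes, the count does not set these genes below it. By the rule for the 10 genes, which also counts a peak that names the gene as nearest at any distance, 8 of 49 had one (16.3%, against 9.16% of short genes). By deposited distance, the closest such peak of each of these 8 genes was centred 435 to 28063 bp from the start. For the 8 of the 10 genes with a peak the range was 2 to 369 bp, but these genes were chosen by their peaks. Among the other polymerase III RNA genes named by a peak it was 71 to 62781 bp. Their median was 379 bp, against 8791 bp for the polymerase II genes, and the difference was not tested. As for the U6 genes, deposited names did not always match RefSeq spans. A peak named RNVU1-18 began at chr1:16506053, while the nearest peak to the RefSeq span of RNVU1-18 was 462049 bp away. One named RNU1-3 lay 9334 bp from RNU1-2. The count of 8 of 49 and its distances therefore rest on deposited names. Of the 49 genes 25 were variant U1 (RNVU1) genes, and many of the 49 have near-identical copies. The part of copies and pseudogenes in these counts was not tested. The nearest approaches were SNORD13, with a peak of score 78 at 20 bp, and SNORD3B-2, with one of score 24 at 49 bp. Annotated tRNA genes, the main polymerase III class, overlapped a peak in 239 of 442 (54.1%, leaving out TRU-TCA1-1), in 194 peaks of median score 149. Across snoRNA genes the share was 0.757% and across miRNA hairpins 1.47%.

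**Figure D5:**
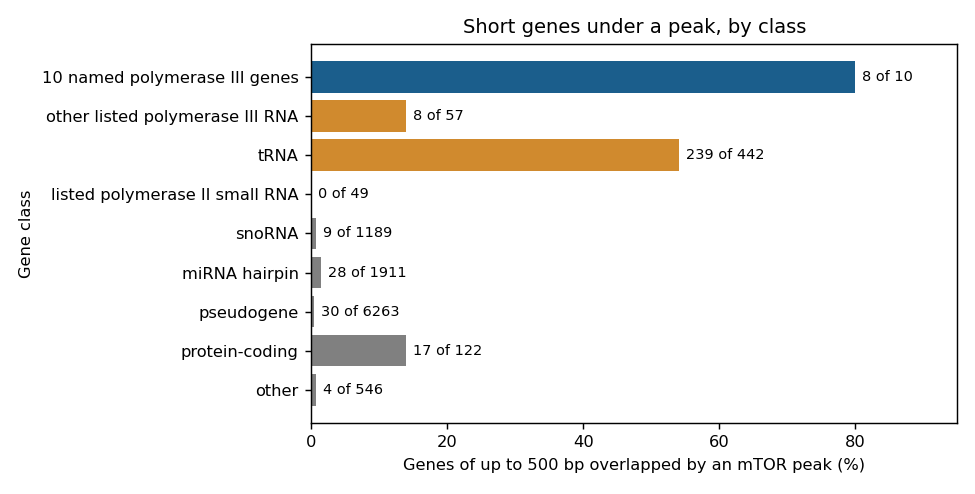
Share of annotated genes of up to 500 bp overlapped by an mTOR peak (horizontal, percent) in each gene class (vertical), with counts beside the bars. The 10 named genes were chosen with the peaks known. tRNA genes stand at 54.1% and listed polymerase II small RNA genes at 0%, where 0 of 49 allows up to 6.12%.

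Annotated copies of the same families, most of them pseudogenes, seldom overlapped a peak. Leaving out RN7SL3, VTRNA1-2 and VTRNA1-3, 8 of 1053 did, against 3.24% of short genes. tRNA genes made up 239 of the 343 short genes with a peak, so that share is a high reference for pseudogenes. Among annotated pseudogenes of up to 500 bp, a class that includes most of these copies, 30 of 6263 (0.479%) overlapped a peak. The counts therefore do not set these copies below other pseudogenes. For 7SL copies the count was 4 of 681 (0.587%), for 7SK copies 4 of 292 (1.37%) and for Y RNA copies 0 of 75, which allows up to 4%. Most of the 8 peaks were centred elsewhere: that of RN7SL824P, with the highest score, 723, was centred on an L1 element and covered 45.8% of the copy, that of RN7SKP193, at 339, covered 1.1%, and that of RN7SKP140, at 241, was centred on an L1 element. Only 3 were centred inside the copy. Of these RN7SL43P (chr7:66979751-66980946, score 179) and RN7SL625P (chr7:72841004-72842154, score 164) were covered end to end by peaks 1196 and 1151 bp wide, 15238 bp from the SBDS start and 12206 bp from that of its pseudogene SBDSP1. SBDS and SBDSP1 lie in a pair of duplicated segments, so reads may be shared between these 2 copies. The remaining one, RN7SKP11, had a score of 21.

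Genes for the proteins that bind these RNAs or transcribe them were examined by the promoter rule, a peak within 1 kb of the start of the gene it was assigned to. This held for 12 of 51 genes (23.5%), against 15.5% of 19974 protein-coding genes. Among 7SK particle genes 3 of 7 had one. HEXIM1, the P-TEFb inhibitor, had 973 with the centre 922 bp past the start (chr17:45147378-45149101), HEXIM2 had 275 and CDK9, the kinase of P-TEFb, had 59. LARP7, MEPCE, CCNT1 and CCNT2 had none. Signal recognition particle genes had 2 of 8, SRP19 at 130 and SRP68 at 14. RNase P and MRP protein genes had 1 of 11, RPP21 at 21, Ro and La genes 0 of 2 and vault protein genes 0 of 3. The list for the upstream promoter held 11 genes, of which BRF2, the TFIIIB subunit specific to it, had 168 and THAP11 had 80. THAP11 was listed for the element it shares with ZNF143 sites. Of 9 genes for internal promoter factors and MAF1, 4 had one: GTF3C5 at 237, MAF1 at 67, GTF3C3 at 61 and GTF3C4 at 51. SNAPC1 to SNAPC5 had none.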

How the data were processed

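The data were 1 table of annotated mTOR ChIP-seq peaks from MDA-MB-231 cells, and the input library entered only as the reference for peak calling, per the series design. The submitters' processing notes name Trimmomatic 0.36, BWA 0.7.12, Picard 2.0.1, MACS2 2.1.1.20160309 and HOMER 4.11.1 on hg38 but no settings. The peak threshold and the handling of duplicate and multiply aligned reads are therefore unknown here. The deposited peak score is a whole number of unstated scale, sorted from high to low, and was used only to describe and rank peaks within the list. Peak positions, classes and distances were used as deposited, per the file headers.

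Gene spans came from RefSeq on GRCh38.p14, and upstream sequence and start sites from its promoter table, which holds no window of most RNA genes themselves. Peaks were matched to genes by an overlap of 1 base or more, and partner genes by gene identifier. The overlap rule was tested on simulated peaks. Members and lists were chosen with earlier results of these data known. With 1 library there was no test, and shares are set beside the same share over all genes of the kind. The text names all 10 genes, listed RNA genes with a peak, copies with a peak among the 5 of highest score, up to 3 top genes of each partner list, nearest protein-coding genes and the 3 RNA genes closest in score to RN7SL2. RN7SKP11, GTF3C4, SNAR-E, SNORD13 and SNORD3B-2, and listed genes named as lacking a peak, were added after their values were seen. Alternatives were other overlap rules, promoter windows, sets of higher-scoring peaks and peaks without repeat labels. Scripts ran in Python 3.11.15 (pandas 2.3.3, scipy 1.17.1, matplotlib 3.10.9, numpy 2.4.6).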

Additional observations from a re-analysis of the deposited data

How the results depend on the processing

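The count of 8 among the 10 genes was 8 in the 10720 higher-scoring peaks, by the deposited gene name alone, with at least 90% of the span covered, and within 1 kb or 5 kb of the span. Leaving out peaks with a repeat label could not change it, since no peak of their classes, promoter-TSS and TTS, has one. It was 4 among the 2144 top-scoring peaks, whose lowest score is 200, and 5 where the peak centre had to lie inside the gene. For the other polymerase III RNA genes these last 2 settings gave 1 and 2 in place of 8. With a peak naming the gene as nearest counted as well, added after the data were seen, they had 13, and the polymerase II small RNA genes had 8 in place of 0. Both of these counts rest on deposited names, some of which did not match the RefSeq spans. Without the 5S and SNAR genes, a setting added after the data were seen, the 8 came from 12 genes in place of 57. For the polymerase II small RNA genes the count of 0 became 2 within 1 kb and 3 within 5 kb of the span, and stayed 0 in the 4 settings that required overlap. The copies, 11 of 1056 with RN7SL3, VTRNA1-2 and VTRNA1-3 counted, gave 4 with the centre inside, 6 with 90% covered, 32 within 1 kb and 102 within 5 kb. With a family repeat label at the centre, also added after the data were seen, they gave 3. Partner genes gave 10 and 16 of 51 with windows of 100 bp and 5 kb, in place of 12. No paired analysis was possible because each library stands alone. Without read counts or a replicate, neither a missing peak nor a difference in score between genes can be given an error.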

Other observations

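Of the 10589 annotated genes of up to 500 bp, 343 overlapped a peak, in 292 peaks of median score 127. tRNA genes made up 239 of the 343. Short protein-coding genes had 17 of 122, in 15 peaks of median score 59. Copies of U6 genes overlapped a peak in 6 of 1269 (0.473%), with 1 peak centred inside the copy, and copies of 5S genes in 2 of 504 (0.397%).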
